A study of Mus musculus with 2 samples.

Results

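Genes for receptors of gastrin and cholecystokinin (Cckbr, Cckar), somatostatin (Sstr1, Sstr2, Sstr3, Sstr5), PACAP and vasoactive intestinal peptide (Adcyap1r1, Vipr1, Vipr2) and galanin (Galr1) were followed in RNA-seq libraries of mouse stomach cells. They were listed by name, as receptors through which peptides are known to act on histamine-making stomach cells or as close relatives of those receptors. The list was chosen with earlier results of these data known. The list holds 10 of the 37681 gene identifiers in the count files. The mice were C57BL/6 and carried the Hdc-CFP transgene, in which a cyan fluorescent protein reports activity of the gene for histidine decarboxylase, the enzyme that makes histamine. One library came from sorted CFP-positive cells and 1 from corpus epithelial cells that had been depleted of CFP-positive cells. Both groups share strain, transgene and organ. The cell type label names the stomach for the sorted cells and the stomach corpus for the depleted cells. The sources used here give neither the age and number of the mice nor the genome fragment that drives the reporter. A transgene reports the cells in which it is active, which need not be every cell that makes histamine.

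The enterochromaffin-like (ECL) cell is the histamine-making endocrine cell of the corpus. Gastrin from the antrum acts on its cholecystokinin B receptor (Cckbr), which couples to Gq, phospholipase C and calcium and leads to histamine release, which in turn drives acid secretion by parietal cells. PACAP, a nerve peptide, stimulates ECL cells through a receptor that couples to Gs and cAMP, while somatostatin from D cells and galanin from nerves inhibit them through receptors that couple to Gi/o.

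Counts in genes totalled 10736538 for the sorted library and 50928524 for the depleted library, which was 4.74 times as deep. Levels are given as normalised CPM, counts relative to the library total after trimmed-mean (TMM) scaling, and a fold is the level in the sorted over that in the depleted library. Brackets hold exact 95% intervals, Poisson for a level and Clopper-Pearson for a fold, and hold counting error alone. As each group had 1 library, no test is possible and no p-value is given, and every difference is one between these libraries. In such bulk samples fewer cells of a type and less RNA per cell cannot be told apart. A gene was measured with at least 10 counts in at least 1 library, and was called higher or lower when its fold was at least 2 in that direction with an interval clear of 1. The level of Hdc itself was 8750.2 CPM after sorting against 21.2 CPM after depletion, in the direction of the labels.

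The promoters of the receptor with the most reads (Cckbr), the main somatostatin receptor by reads (Sstr2), the higher PACAP and VIP receptor (Vipr1) and the PACAP receptor that was hardly read (Adcyap1r1) are shown, so that the sequence before each start can be set beside its level. RefSeq (GRCm38.p6) gave a promoter for 6 of the 10 genes. Each run holds the 250 bases before the gene's start, 5′ to 3′, and capitals mark matches on either strand to a cAMP response element (TGACGTCA), an E-box (CANNTG), a GC box (GGGCGG) or an AP-1 site (TGANTCA).
Cckbr, chr7:105425481-105425730 (plus strand): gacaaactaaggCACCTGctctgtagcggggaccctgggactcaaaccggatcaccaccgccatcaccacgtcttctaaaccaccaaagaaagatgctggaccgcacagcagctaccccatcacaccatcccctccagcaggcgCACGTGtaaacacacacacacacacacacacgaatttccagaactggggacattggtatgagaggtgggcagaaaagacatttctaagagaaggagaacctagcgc
Sstr2, chr11:113619077-113619326 (plus strand): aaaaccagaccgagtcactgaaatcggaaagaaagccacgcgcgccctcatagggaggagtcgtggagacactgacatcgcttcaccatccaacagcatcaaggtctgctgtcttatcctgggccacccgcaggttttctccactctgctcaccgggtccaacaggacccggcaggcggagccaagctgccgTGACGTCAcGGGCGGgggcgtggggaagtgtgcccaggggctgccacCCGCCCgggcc
Vipr1, chr9:121642466-121642715 (plus strand): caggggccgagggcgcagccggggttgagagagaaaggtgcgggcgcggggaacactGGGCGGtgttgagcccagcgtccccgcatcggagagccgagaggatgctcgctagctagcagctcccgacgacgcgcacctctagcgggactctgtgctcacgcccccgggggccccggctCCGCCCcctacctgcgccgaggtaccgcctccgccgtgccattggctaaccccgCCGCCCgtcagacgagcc
Adcyap1r1, chr6:55451728-55451977 (plus strand): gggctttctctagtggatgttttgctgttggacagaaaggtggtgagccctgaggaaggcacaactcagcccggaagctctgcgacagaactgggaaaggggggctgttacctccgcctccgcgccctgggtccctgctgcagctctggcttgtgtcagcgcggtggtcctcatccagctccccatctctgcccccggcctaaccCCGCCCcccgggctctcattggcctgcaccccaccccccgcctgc
The Sstr2 promoter held the palindromic cAMP response element 58 bases before the start, with a GC box beside it and another nearer the start. Of 32851 mouse promoters of the same length, 1.55% held this element. The Vipr1 promoter held 3 GC boxes, 30 CpG dinucleotides and 72.8% G or C, against a median of 52.4% over all promoters. Adcyap1r1 also had a promoter rich in G and C (65.6%), with 11 CpG and 1 GC box. The Cckbr promoter was plainer, with 53.6% G or C, 9 CpG and no GC box, and its matches were 2 E-boxes. A GC box was found in 32.7% of all promoters, an E-box in 66.2% and an AP-1 site in 6.75%. A match is a description of the letters, not evidence of a bound factor.

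Of the 10 genes, 8 were measured and 7 of these were higher in the sorted library, 0 were lower and 1 (Vipr2) was neither. Over all 16682 measured genes 21.9% were higher and 22.3% lower by the same rule. Sstr1, Sstr3 and Galr1 were measured through the sorted library alone, so they had to differ, and no support is taken from the count. Over the 5 receptors with at least 10 counts in both libraries the median log2 fold was 2.66, against 0.03 over the 13472 genes of which this was true. As the list was chosen with earlier results known, this contrast is a description only. With total-count scaling 4741 of all genes were higher and 2853 lower, in place of 3652 and 3723. Summed over the 10 genes, the level was 888 CPM in the sorted against 80.9 CPM in the depleted library. No exon of another annotated gene overlapped an exon of the 10 genes, and 8 of them shared no 50-base word with transcripts of another gene, while Adcyap1r1 shared 0.0872% and Vipr2 0.359% of theirs.

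**Figure D1:**
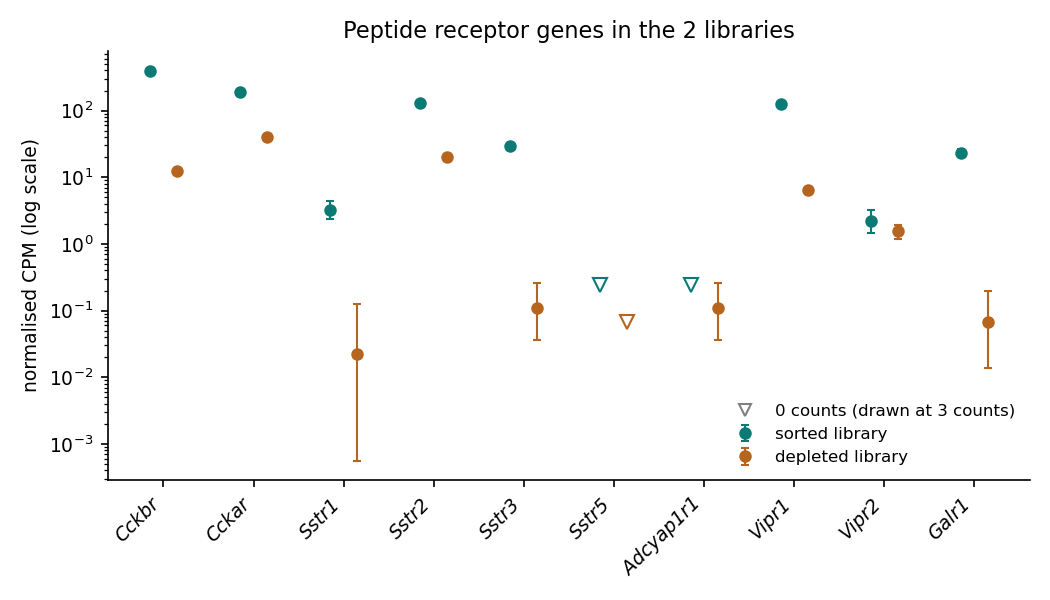
Normalised CPM (log axis) of the 10 receptor genes in the sorted and depleted libraries, 1 library each. Bars are exact 95% Poisson intervals and open triangles mark 0 counts, drawn at 3 counts. The sorted level lies above the depleted one for Cckbr (392 against 12.6), Cckar, Sstr1, Sstr2, Sstr3, Vipr1 and Galr1, and the bars meet for Vipr2.

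Cckbr (ENSMUSG00000030898), the gastrin receptor, had the most counts of the 10 genes in the sorted library. It had 4771 counts or 392 CPM [381 to 403] there, against 567 counts or 12.6 CPM [11.6 to 13.7] in the depleted library. The levels lay far apart, with a fold of 31.0 [28.4 to 33.9], and Cckbr ranked 856 by fold among all measured genes. Cckar (ENSMUSG00000029193), the cholecystokinin A receptor, which binds sulfated cholecystokinin far better than gastrin, had 2281 counts (187 CPM) in the sorted against 1785 counts (39.8 CPM) in the depleted library. It was therefore read at depth in both, and its fold of 4.71 [4.43 to 5.02] was much smaller than that of Cckbr. The ratio of the folds was 6.58 [5.91 to 7.34], a value that depends neither on scaling nor on gene length. The pair changed places. Per kilobase of exon Cckbr stood at 137 and Cckar at 50.9 CPM in the sorted library, and at 4.41 and 10.8 CPM in the depleted one. Cckbr made up 72.9% of the pair's counts per length in the sorted against 29.0% in the depleted library.

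Markers of acinar and parietal cells, which are among the other cells known for these receptors, went opposite ways. Cckar is known from pancreatic acinar cells, and 5 of 6 acinar genes were measured and each of the 5 was higher after sorting, at a summed level of 9141 CPM against 39.5 CPM. Pnliprp1, a lipase-related protein, led them, and Cpa1, a carboxypeptidase of acinar cells, was at 0 in both libraries. Of the 5, Ctrb1 was measured through the sorted library alone, so it had to differ. For each 1000 counts of Cel, the acinar carboxyl ester lipase, there were 159.8 counts of Cckar in the sorted against 18030.3 in the depleted library. The part of acinar RNA in the level of Cckar was not tested. Parietal cells, which are also reported to carry Cckbr, had all 4 of their markers lower in the sorted library (1323 against 7271 CPM in sum). Of these, Kcnq1 was barely past the limit, with a fold of 0.497 [0.456 to 0.540]. It fell short of 2-fold lower with total-count scaling, which multiplies every fold by 1.29.

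Of the somatostatin receptors, Sstr2 was the one with the highest level per length in both libraries, and Sstr1 and Sstr3 had the larger folds. Sstr2 (ENSMUSG00000047904), the receptor through which somatostatin is known to inhibit ECL cells, had 1554 counts (128 CPM [121 to 134]) in the sorted against 906 counts (20.2 CPM [18.9 to 21.5]) in the depleted library, which is a fold of 6.32 [5.82 to 6.87]. Sstr3 (ENSMUSG00000044933), a subtype found on neuronal cilia, had 354 counts (29.1 CPM) against 5 counts (0.111 CPM). It was close to absent from the depleted library, and its fold was 261 [111 to 809]. Sstr1 (ENSMUSG00000035431) was low, with 40 counts (3.28 CPM) against 1 count (0.0223 CPM), a ratio of 148 whose interval ran from 25.0 to 5969.8. Sstr5 (ENSMUSG00000050824), a subtype of pituitary and pancreatic islets, and Sstr4, the remaining family member, had 0 counts in both libraries. With 0 counts read, up to 3 counts are allowed for, which is 0.246 CPM at the depth of the sorted library and 0.0668 CPM at that of the depleted one. Per kilobase, Sstr2 was at least 661 times Sstr5 in the sorted against at least 385 times in the depleted library.

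Sstr2 differed less between the libraries than the other detected subtypes. The fold of Sstr3 was 41.3 times [17.4 to 128] and that of Sstr1 23.3 times [3.94 to 945] that of Sstr2. Sstr3 and Sstr1 could not be separated by fold, with a ratio of 1.77 [0.0365 to 16.4]. Per length, Sstr2 made up 87.7% of the somatostatin receptor counts in the sorted library, Sstr3 9.91% and Sstr1 2.37%, while in the depleted library Sstr2 made up 99.6%. The ligand gene Sst marks D cells and was itself 8.17-fold higher in the sorted library , and Hhex, the other D cell marker, was lower. For each 1000 Sst counts there were 179.6 counts of Sstr2 in the sorted against 232 in the depleted library, so the fold of Sstr2 was 0.775 times [0.707 to 0.849] that of Sst. The part of D cells in the level of Sstr2 was not tested.

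Among the PACAP and VIP receptors, Vipr1 took nearly all of the family's reads in the sorted library and Adcyap1r1 had none there. Vipr1 (ENSMUSG00000032528), the VPAC1 receptor, which binds VIP and PACAP with like affinity, had 1506 counts (124 CPM [118 to 130.1]) in the sorted against 290 counts (6.46 CPM [5.74 to 7.25]) in the depleted library. The levels did not meet, and the fold was 19.1 [16.9 to 21.8]. Vipr2 (ENSMUSG00000011171), the VPAC2 receptor, was low in both, with 27 counts (2.22 CPM [1.46 to 3.23]) against 69 counts (1.54 CPM [1.20 to 1.94]). Its fold was 1.44 [0.889 to 2.28], an interval that included 1. It did not with total-count scaling (1.86 [1.14 to 2.93]) or without the 20 most abundant genes (1.66 [1.02 to 2.62]), and under neither did the fold reach 2. Smooth muscle is known for Vipr2, and its 2 markers went opposite ways: Myh11 had 1.64 CPM (sorted) against 0.490 CPM (depleted), and Acta2 0.328 against 3.01 CPM. Acta2 was measured through the depleted library alone. Adcyap1r1 (ENSMUSG00000029778), the PAC1 receptor, which prefers PACAP and has been described on rat ECL cells, had 0 counts in the sorted against 5 counts (0.111 CPM) in the depleted library. At the depth of the sorted library those 5 counts amount to 1.05 counts, so a difference was not detectable.

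The fold of Vipr1 was 13.2 times [8.21 to 21.9] that of Vipr2. Per length, Vipr1 made up 97.7% of the family's counts in the sorted against 75.5% in the depleted library, and Vipr2 2.28% and 23.3%. Per kilobase Vipr1 was at least 571 times Adcyap1r1 in the sorted library and 66.0 times in the depleted one. Of the 10 receptor pairs within a family, 4 had a ratio of folds clear of 1, 1 included 1 (Sstr3 with Sstr1) and 5 gave no value because of a count of 0.

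**Figure D2:**
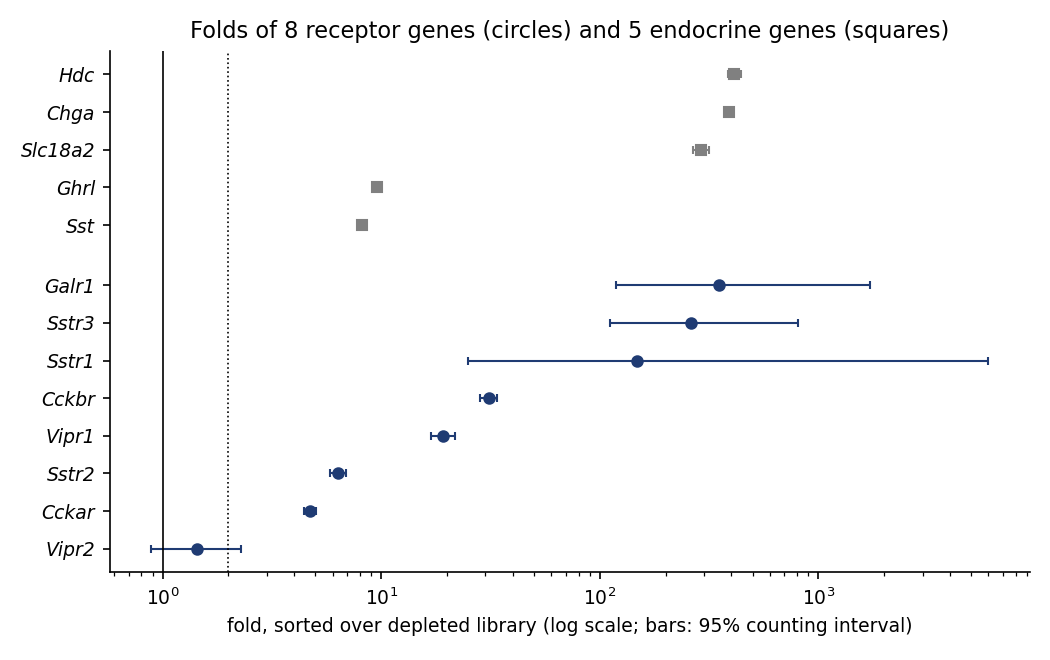
Fold of the 8 measured receptor genes (circles) and of 5 endocrine genes (squares), sorted over depleted library, on a log axis with exact 95% counting intervals. The solid line is a fold of 1 and the dotted line a fold of 2. Cckar (4.71) and Sstr2 (6.32) lie near Sst (8.17), and Sstr3 and Galr1 lie near Hdc (413).

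Galr1 (ENSMUSG00000024553), a Gi-coupled galanin receptor, had 286 counts (23.5 CPM [20.8 to 26.4]) in the sorted against 3 counts (0.0668 CPM [0.0138 to 0.195]) in the depleted library. The ratio was 352 [119 to 1715], rank 105 among all measured genes, and 222 with the depleted library scaled down to the sorted depth. At that depth the 3 counts came to 0.632, which was rounded to a whole count. Galr2, the relative that couples mainly to Gq, had like levels in both libraries, with 19 counts (1.56 CPM) against 74 (1.65 CPM), a fold of 0.947 [0.540 to 1.58]. Galr3 is not analysed here. Galanin receptors are also neuronal genes. Elavl4, a neuron marker that endocrine cells can also express, was 277-fold higher [107 to 1022] (24.6 CPM in the sorted against 0.0891 CPM in the depleted library), and Prph, which marks peripheral neurons, was at 0 in both libraries. Elavl4 was measured through the sorted library alone, so it had to differ. The part of neuronal RNA in the level of Galr1 was not tested.

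Levels of different receptors can be ordered only per length. In the sorted library the order per kilobase of exon was Cckbr (137 CPM), Sstr2 (59.6), Cckar (50.9), Vipr1 (21.3), Galr1 (7.86), Sstr3 (6.73), Sstr1 (1.61) and Vipr2 (0.497), with Sstr5 and Adcyap1r1 at 0. The intervals of Galr1 and Sstr3 met, as did those of the genes at 0, and the intervals of all other neighbours were apart. The order of Sstr2 and Cckar rested on the length used: of the summed level per length of the 10 genes, Sstr2 took 20.9% and Cckar 17.8% by union of exons, but 16.8% and 20.9% by coding length. In the depleted library Cckar led (10.8 CPM per kilobase), followed by Sstr2 (9.42), Cckbr (4.41), Vipr1 (1.11) and Vipr2 (0.344), and the intervals of the remaining neighbours met.

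**Figure D3:**
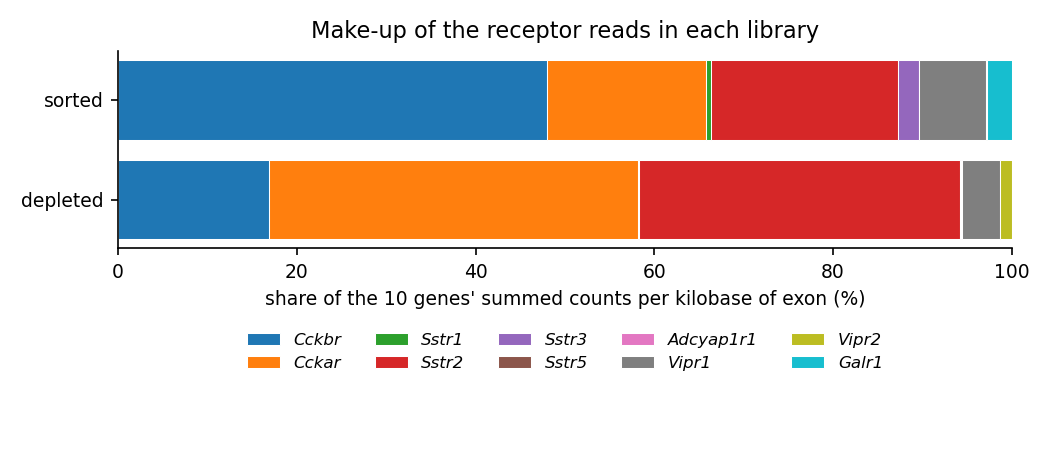
Share of each gene in the summed counts per kilobase of exon of the 10 receptor genes (horizontal axis, percent), for the sorted and depleted libraries. Cckbr takes 48.0% of the sorted and 16.9% of the depleted bar, and Cckar 17.8% and 41.3%.

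Set against Hdc, Cckbr, Cckar, Sstr2, Vipr1 and Vipr2 had smaller folds, and Sstr1, Sstr3 and Galr1 could not be separated from it. For each 1000 Hdc counts there were 44.8 Cckbr counts in the sorted against 596 in the depleted library, so the fold of Cckbr was 13.3 times smaller [11.9 to 14.9] than that of Hdc. Vipr1 was smaller by 21.6 times [18.7 to 24.9], Sstr2 by 65.3 times [58.8 to 72.6], Cckar by 87.7 times [80.1 to 95.9] and Vipr2 by 286 times [180.0 to 467]. The intervals for Sstr3 (1.58 [0.510 to 3.74]), Galr1 (1.18 [0.241 to 3.48]) and Sstr1 (2.80 [0.0691 to 16.6]) all included 1, at 5, 3 and 1 counts in the depleted library. Hdc defined the sort and serves here as a yardstick only.

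**Figure D4:**
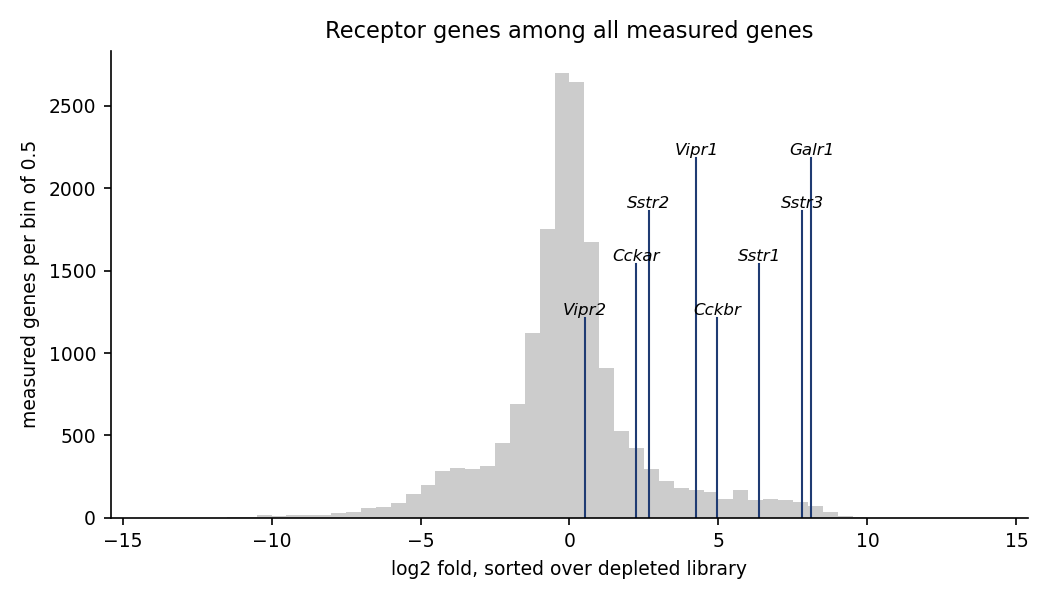
Histogram of the log2 fold, sorted over depleted library, of all 16682 measured genes in bins of 0.5 (vertical axis, genes per bin), with the 8 measured receptor genes as lines whose height has no meaning. The receptors range from 0.52 for Vipr2 to 8.12 for Galr1, and the median gene stands at -0.05.

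Of the 9 genes for peptides that bind these receptors or their close relatives, 3 were measured. All 3 were higher in the sorted library, against 21.9% of all measured genes, and no support is taken from so few. Sst, which encodes somatostatin, had 8651 counts (710.4 CPM) in the sorted against 3907 counts (87.0 CPM) in the depleted library, a fold of 8.17 [7.86 to 8.48]. Spx, which encodes spexin, a peptide that acts on other galanin receptors, had 26 counts against 10 (9.59-fold [4.47 to 22.3]). Gast had 9 counts against 10 (3.32-fold [1.19 to 9.09]), was measured through the depleted library alone and was near the floor. The peptide is made in the antrum, which the cell type labels do not name. Cck (3 counts against 2), Cort (7 against 6), Gal (2 against 0) and Adcyap1 (0 against 1) were not measured, and Vip and Galp had 0 counts in both.

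Receptors for other peptides were mostly low or at 0. Of 63 other peptide receptors of classes A and B, 18 were measured, 6 of these were higher, 7 lower and 5 neither, and 27 had 0 counts in both libraries. Of these 18, 4 were measured through the sorted library alone and 7 through the depleted library alone. No support is taken from these counts. Over the 7 with at least 10 counts in both libraries the median log2 fold was 0.64. In class B, to which Vipr1, Vipr2 and Adcyap1r1 belong, 5 of 12 others were measured, with 2 higher, 2 lower and 1 neither. Sctr, the secretin receptor, had 32 counts against 4267 and was 36.2-fold lower [25.6 to 52.9] in the sorted library, and Glp1r, the receptor of glucagon-like peptide 1, was 5.34-fold lower [4.26 to 6.80]. Gipr, the receptor of glucose-dependent insulinotropic peptide, was 87.3-fold higher [54.6 to 149] and Gcgr, the glucagon receptor, 15.2-fold higher [6.89 to 38.1]. In class A, which holds the receptors of gastrin and cholecystokinin, somatostatin and galanin, 13 of 51 others were measured. Of these, 4 were higher, 5 lower and 4 neither. With genes of fewer counts included, 9 class A receptors were higher. Among those counted as lower, Aplnr, the apelin receptor, had 0 counts against 16 and was at least 1.45-fold lower. Mc4r, a melanocortin receptor, had 919 counts (75.5 CPM) against 10 (0.223 CPM), a fold of 339 [183 to 709]. Ednrb, the endothelin B receptor, had 1 count against 171, Oprd1, the delta opioid receptor, was 5.83-fold lower [2.20 to 21.9], and Kiss1r, the kisspeptin receptor, had a fold of 1.56 [1.01 to 2.37]. Ramp1, which escorts the calcitonin receptor-like receptor and was the one RAMP gene measured, was 13.0-fold higher [9.82 to 17.4]. Calcrl, the gene of that receptor, was not called, with 14 counts against 65 and a fold of 0.794 [0.412 to 1.43].

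Among all 75 peptide receptors listed, Cckbr, Sstr2 and Cckar ranked 1, 2 and 3 per kilobase in the sorted library, Mc4r 4, Vipr1 5, Gipr 6 and Galr1, Sstr3 and Sstr1 7, 8 and 9. In the depleted library Sctr ranked 1 with 47.2 CPM per kilobase, Cckar 2, Sstr2 3, Glp1r 4, Cckbr 5 and Vipr1 6. By log2 fold, among 21 listed receptors with at least 30 counts, Cckbr (4.95) was nearest to Vipr1 (4.26) and then Gcgr (3.80), Sstr2 (2.66) to Cckar (2.24) and then Gcgr, and Vipr1 to Gcgr and then Cckbr. This likeness rests on 2 libraries, and a single difference between them.

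**Figure D5:**
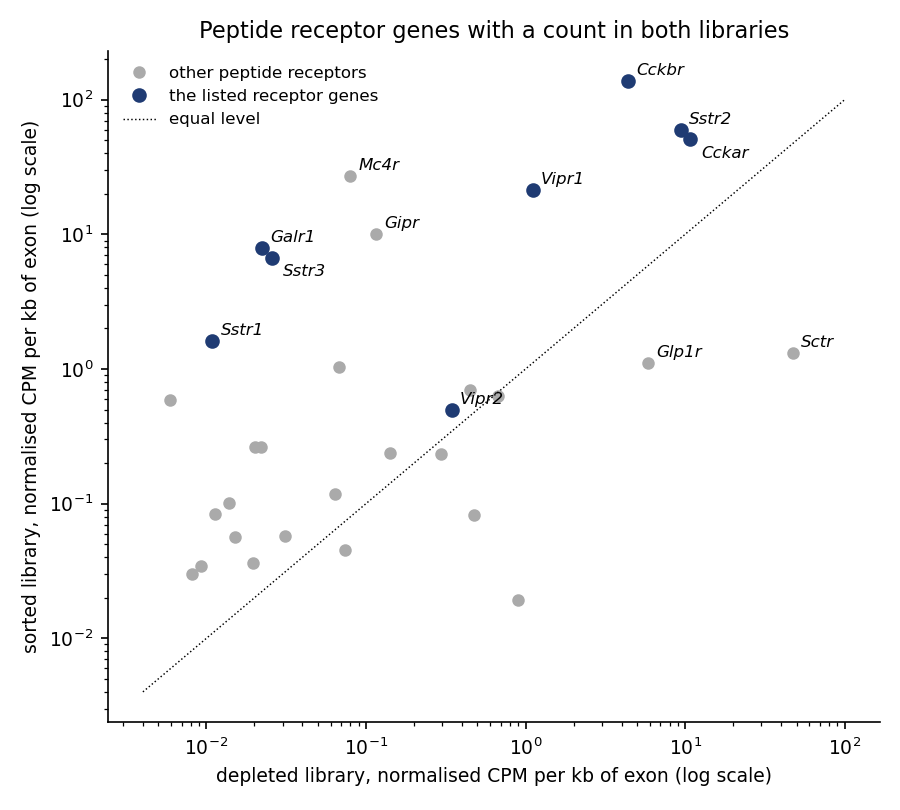
Normalised CPM per kilobase of exon of 31 peptide receptor genes with a count in both libraries, depleted on the horizontal and sorted on the vertical log axis, with 8 of the 10 receptors in dark blue and 23 others in grey. Points above the dotted line are higher in the sorted library: Cckbr (137 against 4.41) is the highest point, and Sctr lies farthest right.

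Genes that act downstream of the receptors lay on both sides in each list. Of 17 genes of the Gq route used by Cckbr, all measured, 5 were higher, 5 lower and 7 neither. The median log2 fold was -0.27, or 0.14 over the 15 with at least 10 counts in both libraries. Gna15 and Plcb2, among the 5 lower, were measured through the depleted library alone. Gnaq, the Gq alpha subunit, was 2.24-fold higher [2.13 to 2.34], Gna11 had a fold of 0.827, and Itpr3, a calcium channel of the endoplasmic reticulum, and Prkcd, a protein kinase C, were 4.56-fold [4.37 to 4.75] and 8.12-fold [7.52 to 8.79] lower. Chosen after their values were seen, the kinases Prkcb and Prkce were 11.7-fold and 11.8-fold higher and the phospholipase Plcb4 7.71-fold higher. Isoforms of one enzyme family thus lay on both sides.

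Of 21 genes of the Gs and cAMP route used by Vipr1, 20 were measured, and 10 of these were higher, 2 lower and 8 neither. The median log2 fold was 1.12, or 0.89 over the 18 with at least 10 counts in both libraries. The cyclases Adcy1 and Adcy8 were measured through the sorted library alone, so they had to differ, and no support is taken from the count. By the same rule 21.9% of all measured genes were higher. Prkar1a, a regulatory subunit of protein kinase A, was 3.73-fold higher [3.63 to 3.84] and the catalytic subunit Prkacb 9.56-fold higher (5975 counts against 2304), while Prkaca (1.52) and the adenylyl cyclase Adcy6 (0.592) stayed within 2-fold. Chosen after their values were seen, the cyclases Adcy1 and Adcy5 were 155-fold [70.5 to 428] and 99.6-fold [70.4 to 146] higher. Of 9 genes of the Gi/o route used by the somatostatin receptors and Galr1, all measured, 5 were higher, 2 lower and 2 neither, and 1 was lower with total-count scaling. The GIRK genes Kcnj3, Kcnj5 and Kcnj6 were measured through the sorted library alone, so they had to differ, and over the 5 genes with at least 10 counts in both libraries the median log2 fold was -0.45. Gnao1, the Go alpha subunit, had 3442 counts against 61 and was 208-fold higher [162 to 273], Gnai1 was 2.32-fold lower [2.04 to 2.65], and Gnai2 (0.733) and Gnai3 (0.708) stayed within 2-fold. Kcnj3, Kcnj5 and Kcnj6, which encode potassium channels, and Gnaz made up the rest of those higher. Kcnj6, for example, had 229 counts against 2 (422-fold [116 to 3507]), and these 4 genes were chosen after their values were seen. A further GIRK gene, Kcnj9, was measured through the depleted library alone, with 1 count against 30. It was among the 2 genes called lower, at 8.14-fold [1.35 to 332].

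Of 7 receptor kinases and arrestins, which switch such receptors off, 2 were higher, 2 lower and 3 neither, with a median of -0.04, and 1 was lower with total-count scaling. Grk3 was 7.78-fold higher [7.29 to 8.31], Grk2 had a fold of 1.15, and Grk6 and Arrb1 were 2.51-fold [2.32 to 2.73] and 3.94-fold [3.58 to 4.34] lower. Of 10 genes that gastrin is known to regulate, 9 were measured, 6 were higher, 0 lower (3 with DESeq2 size factors) and 3 neither, with a median of 3.16 over the 8 with at least 10 counts in both libraries. These 8 include Hdc and 2 further genes of ECL cells, Chga (391-fold [382 to 400.4]) and Slc18a2 (289.9-fold [266 to 316]). Hdc defined the sort, so no support is taken from the list for these 3 genes, nor from the median that they raise. The rest of the 8 had log2 folds of 5.24 (Reg1), 1.07 (Clu), -0.93 (Mcl1), -0.98 (Hbegf) and -0.99 (Ccnd1). Timp1, also called higher, was measured through the sorted library alone, so it had to differ. Apart from these 3 genes, Clu, which encodes clusterin, was 2.09-fold higher [2.07 to 2.12] but short of 2-fold with DESeq2 size factors. Reg1, a growth factor of the regenerating family, had a fold of 39.8 [23.4 to 72.8] (a gene picked with its value in view).

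The sorted library also carried RNA of cells other than ECL cells, and the part of these cells in the receptor levels was not tested. ECL cell markers summed to 76137 CPM in the sorted against 196 CPM in the depleted library. Ghrelin cell markers summed to 4670.2 and 457 CPM, with both of 2 markers higher, and serotonin cell markers to 101 and 2.36 CPM, with both measured of 3 higher. Of 4 mast cell markers, which matter because mast cells also make histamine, 3 were higher (143 against 44.0 CPM in sum). All 3 macrophage markers (5.58 against 1106 CPM) and all 3 surface mucous cell markers (3442 against 147672 CPM) were lower. Both of 2 endothelial (0.657 against 3.81 CPM), both of 2 fibroblast (0.0821 against 11.6 CPM) and all 3 tuft cell markers (5.83 against 203 CPM) were lower, as were 2 of 3 chief cell markers (16509 against 65931 CPM). Both endothelial, both fibroblast, 2 of the 3 macrophage and 1 of the 3 tuft cell markers were measured through the depleted library alone. No support is taken from these marker counts, and over all measured genes 22.3% were lower. Of the 3 islet markers, Ins1 and Ins2 were at 0 in both libraries and Iapp, with 13 counts against 14, was 3.42-fold higher [1.48 to 7.85].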

How the data were processed

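RNA-seq libraries of sorted and depleted cells were analysed, 1 per group. The deposited values are raw counts of reads per Ensembl gene, which the authors made by aligning reads with TopHat2 2.0.07 to mm9 and counting with HTSeq, per the submitters' processing notes. Per the labels' protocols the library kit was TruSeq RNA. The HTSeq version, strand setting and annotation are not given in the sources used here, as no label or header names them. The 5 summary rows that name no gene stayed out of library sizes. Among all counted alignments in the sorted and depleted libraries, they held reads outside genes (9.20% and 4.91%), reads that fit several genes (1.45% and 1.11%) and non-unique alignments (24.2% and 34.3%).

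Symbols and exon lengths (union of exons) were looked up by identifier in GENCODE M21, where 32642 of 37681 had a symbol. M21 is on GRCm38 and the counts were made on mm9, so the only coordinates are those of the promoters. Of 199 listed genes, 198 were found. The value of 1 listed gene is not reported here. TMM factors from edgeR 4.0.16 (R 4.3.3), computed over the 16682 genes with at least 10 counts in 1 library, were 1.13 and 0.882. At these depths 10 counts are 0.821 and 0.223 CPM. Folds, intervals and conditional ratios of folds were computed with Python 3.11.15 and scipy 1.17.1, and tested on simulated data. A pseudocount of 0.5 entered log2 folds only, and a count of 0 was bounded at 3 counts per library. Figures were drawn with matplotlib 3.10.9.

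The members and lists were chosen with earlier results of these data known. Named genes were all 10 receptors, their remaining relatives, every listed ligand, up to 4 genes of each other list with the highest mean CPM, marker sums with their highest gene, and the 2 receptors nearest in log2 fold to Cckbr, Sstr2 and Vipr1. Alternatives were upper-quartile factors, DESeq2 1.42.0 size factors, total counts with and without the 20 most abundant genes, TMM over all genes, 2 other filters, a 4-fold rule, 2 other gene lengths and equal depth.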

Additional observations from a re-analysis of the deposited data

How the results depend on the processing

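With 1 library per group no library could be left out, and variation between mice is not measured. No paired analysis was possible because each group held 1 library. The receptors' counts, 7 higher and 0 lower, were the same under every scaling, filter and call rule tried, and 0 results reversed. Scaling moves every fold alike. With total counts (a median shift of 0.36 in log2, every fold times 1.29) the fold was 39.9 for Cckbr, 6.06 for Cckar, 8.14 for Sstr2 and 24.6 for Vipr1, and without the 20 most abundant genes (a shift of 0.20) it was 35.6, 5.41, 7.26 and 22.0. With TMM factors from all genes, an alternative chosen after seeing the data (a shift of -0.11), Cckar had a fold of 4.36. By coding length the share of Cckbr in its family was 66.8% (sorted) and 23.4% (depleted), and that of Sstr2 81.9% (sorted). Of the Gi/o genes 1 was lower with total counts, 1 with a mean of at least 0.5 CPM and 0 under the 4-fold rule, in place of 2. Of the kinases and arrestins 1 was lower with total counts and 0 under the 4-fold rule, in place of 2, and of the Gs genes 1 under the 4-fold rule, in place of 2. Of the genes regulated by gastrin 3 were lower with DESeq2 factors and 3 with TMM factors from all genes, in place of 0, since Mcl1, Hbegf and Ccnd1, chosen after their values were seen, lay just short of 2-fold lower. With no filter 9 class A receptors were higher, in place of 4. The 4-fold rule called 2272 of all genes higher and 1927 lower, in place of 3652 and 3723. With total counts 4741 of all genes were higher and 2853 lower. No other count, fold or share moved by more than 1.5 times, apart from the fold of Galr1, which was 222 at equal depth. Scaled counts were rounded to whole numbers there, and Sstr1, at 0.211 scaled counts, gave no value. Depth limits Sstr1, Sstr3, Galr1 and Adcyap1r1, which had 5 or fewer counts in the depleted library.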
